A study of Mus musculus with 2 samples.

Results

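The genes described here are 10 genes of mitochondrial fatty acid oxidation, Cpt1a, Cpt1b, Cpt2, Acadvl, Acadl, Acadm, Hadha, Hadhb, Etfa and Etfb, chosen by name among the 36547 genes listed in at least 1 of 2 single-cell RNA tables. The study compared whole testis of wild-type (WT) mice with that of mice lacking Alkbh5 (Alkbh5-/-, KO), an RNA demethylase that removes N6-methyladenosine from RNA. Both genotypes were C57BL/6 males 12 weeks old, heterozygous mice had been crossed to obtain the KO, and the deletion was present in every cell of the animal. There was 1 library per genotype. The introduction speaks of 1 mouse per genotype and the methods of 3, so a library may pool animals. With 1 library each, no difference between the genotypes in these counts has a replicate check. Each count is a number of unique molecular identifiers (UMIs), that is, of captured RNA molecules, and a level is given as UMIs per 1000000 UMIs of a cell class (CPM). Intervals are exact 95% intervals and cover counting error only.

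Fatty acid oxidation yields acetyl-CoA and reduced electron carriers from fatty acids inside the mitochondrion. Long-chain fatty acids enter as carnitine esters: carnitine palmitoyltransferase 1 in the outer membrane (Cpt1a encodes the liver form, Cpt1b the muscle form) makes the ester, and carnitine palmitoyltransferase 2 (Cpt2) in the inner membrane turns it back into acyl-CoA. Acyl-CoA dehydrogenases for very long, long and medium chains (Acadvl, Acadl, Acadm) take the first oxidation step, and the trifunctional protein of Hadha and Hadhb carries out the remaining steps on long chains. The electron transfer flavoprotein, built from the subunits of Etfa and Etfb, accepts the electrons of the dehydrogenases and passes them on to the respiratory chain. Leydig cells make testosterone from cholesterol, Sertoli cells nourish the germ cells and are known to oxidise fatty acids, and germ cells change their fuel as they pass through meiosis and become spermatids.

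Depth was similar in both libraries, at 80283221 UMIs in 5756 WT barcodes and 82056760 UMIs in 7012 KO barcodes, with 45 barcode sequences in both. Alkbh5 itself was counted 607 times in WT and 5 times in KO. Clusters were named from marker genes over both libraries pooled: all 13 Leydig markers and all 15 Sertoli markers were detected in the Leydig-like and Sertoli-like clusters. The Leydig-like class had 93 WT and 1169 KO barcodes, or 1.62% (1.31 to 1.98) and 16.7% (15.8 to 17.6) of all barcodes, and the Sertoli-like class 50 and 475, or 0.869% (0.645 to 1.14) and 6.77% (6.20 to 7.39). Of the germ cells, spermatogonia-like barcodes took 3.30% in WT and 15.1% in KO, and elongating spermatid-like barcodes 42.0% and 18.7%. A cluster led by Ssxb2 and Ssxb1, with 658 and 624 barcodes, carried 9 of 14 late spermatocyte markers at a mean log2 fold of only 0.70 and is kept as germ cells whose stage is not named. One of 3 round spermatid-like clusters, led by Gm30302 and Fam71b, with 332 and 316 barcodes, took its name from 2 markers among its leading genes, as only 4 of 18 markers were detected, at a mean log2 fold of -0.85.

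Hadha and Hadhb lie head to head on chromosome 5 of GRCm38, so that a stretch of 85 bases separates the gene ends in the GENCODE annotation. The RefSeq starts, from which the 300-base promoter windows were taken, have 272 bases between them. These windows share 228 bases. The Hadhb window is shown because the pair makes up 1 enzyme and its levels were closely alike across cell classes (r = 0.91, given again with the other pairs). It is read on the + strand from chr5:30155003-30155302 (RefSeq, GRCm38.p6), and capitals mark the 85 bases between the annotated ends of Hadha and Hadhb.

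Hadhb: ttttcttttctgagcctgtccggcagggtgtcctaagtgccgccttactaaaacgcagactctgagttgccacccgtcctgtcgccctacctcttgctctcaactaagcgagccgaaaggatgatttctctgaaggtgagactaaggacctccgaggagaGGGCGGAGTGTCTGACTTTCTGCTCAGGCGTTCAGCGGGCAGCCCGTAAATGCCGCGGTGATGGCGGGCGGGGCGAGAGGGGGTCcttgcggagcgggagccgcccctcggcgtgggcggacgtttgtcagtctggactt

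The windows of Acadl (chr1:66863260-66863559, - strand) and Acadm (chr3:153944594-153944893, - strand) are shown because these were the acyl-CoA dehydrogenases with the highest share of UMIs in Leydig-like cells. Capitals mark the reverse complement of the GC box GGGCGG in Acadl and that of the nuclear receptor motif AGGTCA in Acadm.

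Acadl: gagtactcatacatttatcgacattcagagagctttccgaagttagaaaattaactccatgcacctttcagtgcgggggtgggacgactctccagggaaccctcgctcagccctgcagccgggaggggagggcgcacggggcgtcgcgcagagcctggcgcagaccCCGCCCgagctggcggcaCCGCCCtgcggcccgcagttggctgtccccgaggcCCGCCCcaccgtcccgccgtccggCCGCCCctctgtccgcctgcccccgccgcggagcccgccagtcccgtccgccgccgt
Acadm: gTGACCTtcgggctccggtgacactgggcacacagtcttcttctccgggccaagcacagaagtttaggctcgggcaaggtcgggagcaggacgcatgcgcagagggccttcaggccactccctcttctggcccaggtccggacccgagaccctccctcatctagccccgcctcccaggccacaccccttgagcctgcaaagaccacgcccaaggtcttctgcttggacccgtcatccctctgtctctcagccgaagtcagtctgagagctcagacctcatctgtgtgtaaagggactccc

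RefSeq windows of 250 bases before to 50 bases after the start were found for 9 of the 10 genes. GGGCGG was read on either strand in 6 of the 9, with 4 matches each in Acadl and Hadhb, and in 35.6% of 32817 mouse promoters. The 1 match of Hadha lies in the bases its window shares with that of Hadhb, so this site is counted for both genes. AGGTCA, a motif bound by nuclear receptors, was in Acadm, Acadvl and Cpt1a and in 16.3% of all promoters. CCAAT was in Cpt1a, Etfa and Etfb and in 37.4% of all promoters. TATAAA was in none of the 9 and in 13.6% of all, and AGGTCANAGGTCA, which holds that motif 2 times 1 base apart, was in none of the 9 and in 0.0396% of all. The Acadl window had 70.3% G and C against a median of 52.7% over all promoters. These are matches of letters, and no factor was measured.

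In WT 8 of the 10 genes, and in KO 7, were at their highest in Leydig-like cells. Hadhb and Cpt2 in both libraries had levels in Leydig-like and early spermatocyte-like cells that did not differ beyond their intervals. For late spermatocyte-like cells this held too, except for Hadhb in WT, which was higher in Leydig-like cells. Acadl, Acadm, Etfa, Etfb, Cpt1a and Acadvl stood out most from pooled germ cells. By class, Etfa in early spermatocyte-like cells was at 69% (WT) and 87% (KO) of its Leydig-like level. Acadvl in spermatogonia-like cells was at 22% and 60% of its own. Acadl had 363 UMIs and 355 CPM (319 to 393) in WT Leydig-like cells and 4023 UMIs and 391 CPM (379 to 404) in KO, against 1.31 and 4.56 CPM in pooled germ cells. Acadm was at 455 and 365 CPM against 2.00 and 11.9 CPM in germ cells, Cpt1a at 80.1 and 78.4 CPM against 1.01 and 2.33, and Etfb at 134 and 107 CPM against 3.35 and 4.77. The Leydig-like level of Acadl was 270-fold that of pooled WT germ cells and 85.9-fold that of pooled KO germ cells. In contrast, Hadha, Hadhb and Cpt2 were at most 4.80-fold higher in Leydig-like than in pooled germ cells of either library.

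**Figure D1:**
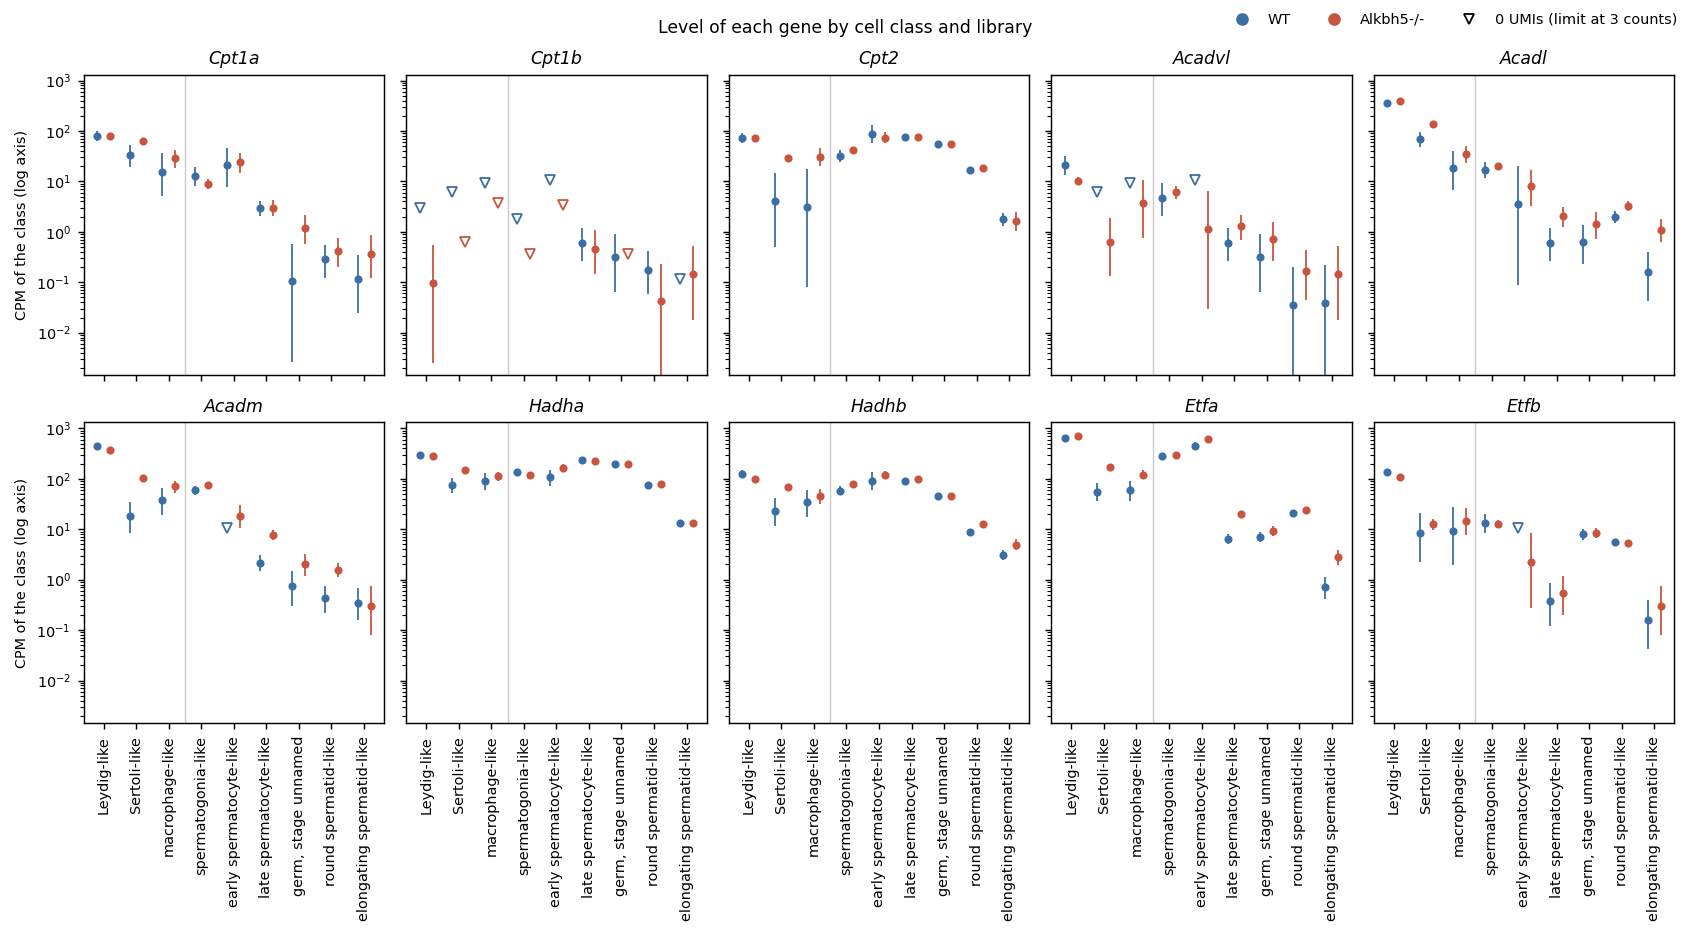
Level of each of the 10 genes (CPM of the class, log axis) in 9 cell classes, with WT in blue, KO in red, bars for the exact 95% Poisson interval, and open triangles for classes with 0 UMIs, placed at the level of 3 counts. Hadha, Hadhb and Cpt2 stay high through the late spermatocyte-like class, whereas Acadl, Acadm and Cpt1a drop after the spermatogonia-like or early spermatocyte-like class.

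At the level of single barcodes thinned to 5729 UMIs each, Acadl had a UMI in 77.9% (67.7 to 86.1) of 86 WT and 83.8% (81.3 to 86.0) of 991 KO Leydig-like barcodes, where the shares without thinning were 88.2% and 89.5%. In elongating spermatid-like barcodes thinned alike, it had a UMI in 0.0912% of WT and 0.731% of KO. The median thinned Leydig-like barcode held 13 UMIs of the 10 genes in WT, with 10th and 90th percentiles of 4 and 22, and 12 UMIs in KO, with 6 and 19. Several of these transcripts were thus seen in 1 barcode, with a median of 6 of the 10 genes in WT and 5 in KO.

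Summed over whole libraries, the genes differed widely between the genotypes. Acadl was counted 506 times in WT and 5023 times in KO, 6.30 and 61.2 CPM, a log2 ratio of KO over WT of 3.28 (3.15 to 3.41). Acadm had 644 and 5106 UMIs (2.96), Cpt1a 182 and 1294 (2.80), Etfa 2075 and 12108 (2.51), Acadvl 43 and 190 (2.11) and Etfb 407 and 1487 (1.84). The remaining genes differed less, with Hadhb at 2211 and 3976 UMIs (0.82), Cpt2 at 2218 and 3056 (0.43) and Hadha at 8017 and 11068 (0.43). With a CPM ratio of at least 1.5 and at least 50 UMIs over both libraries called past the fold, 7 of 9 genes with enough UMIs were past it as higher in KO, where 41.0% of 21076 genes were, and 0 were lower, where 9.63% were. In such sums alone, a difference in the number of cells of a class cannot be told apart from a difference in RNA per cell. For Acadl, the paper reported the opposite direction by RT-qPCR of testis tissue, with RNA greatly downregulated in KO. Why these measures differ was not tested.

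The classes that held the UMIs differed by gene. Leydig-like barcodes gave 71.7% of the Acadl UMIs in WT and 80.1% in KO, and 72.4% and 73.5% of those of Acadm. Of the Hadha UMIs in WT, 38.3% were in late spermatocyte-like, 26.2% in round spermatid-like and 3.84% in Leydig-like barcodes. These classes held 16.5%, 35.0% and 1.27% of all WT UMIs. Leydig-like barcodes gave 26.9% of the Hadha UMIs in KO, where they held 12.5% of all UMIs. When the WT level of each class was weighted by the share of UMIs each class took in KO, a weighting chosen after the data had been seen, the log2 ratio to WT was 3.02 for Acadl, 3.02 for Acadm, 2.64 for Cpt1a and 2.29 for Etfa. The log2 ratio left of the observed KO level to that weighted level was 0.26, -0.07, 0.15 and 0.22. For the other genes it was 0.11 for Cpt2, 0.02 for Hadha, 0.14 for Hadhb, -0.23 for Etfb, -0.52 for Acadvl and -0.58 for Cpt1b, and Cpt1b, with few UMIs, had only -0.27 from the weighting.

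**Figure D2:**
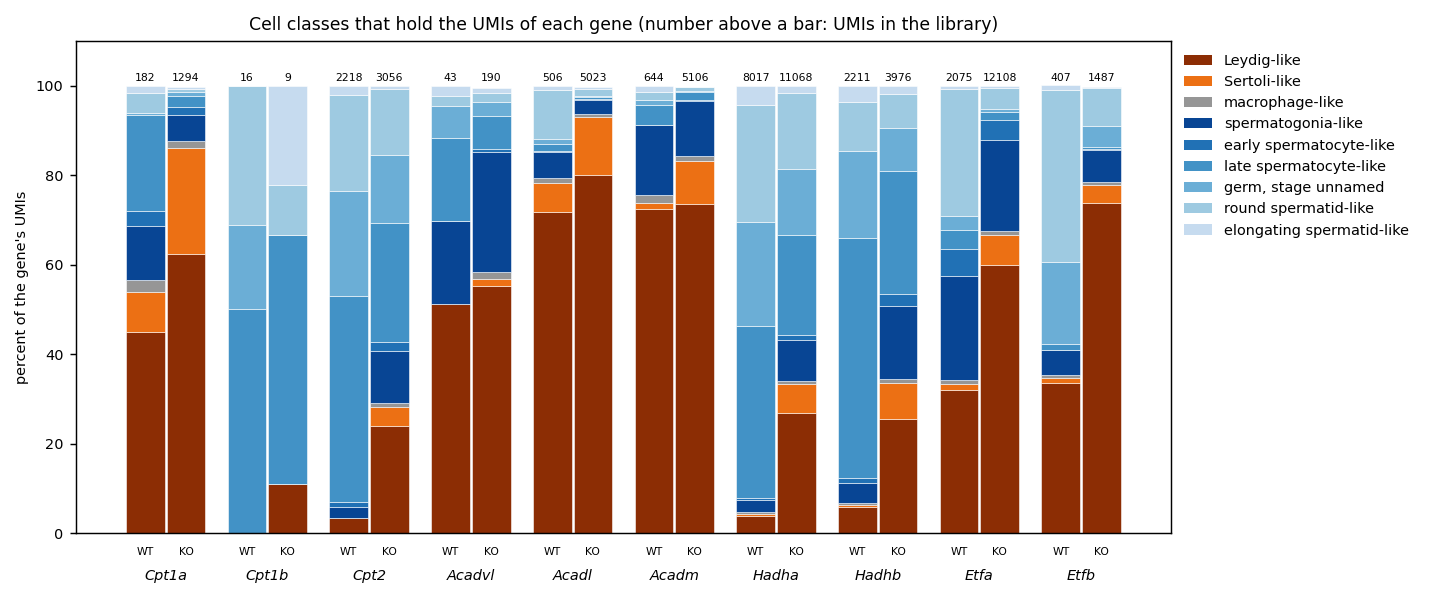
Percent of the UMIs of each gene (vertical axis, 0 to 100) held by each cell class, in paired bars for WT and KO, with the number of UMIs in the library above each bar and endothelial-like barcodes not drawn. Leydig-like barcodes hold most Acadl and Acadm UMIs in both libraries, while Hadha, Hadhb and Cpt2 UMIs lie mostly in germ cells in WT. Germ cells hold 97.7% of all WT UMIs.

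Within Leydig-like cells, 0 of 9 genes with enough UMIs were past the fold as higher in KO, where 15.3% of 10313 genes were, and 1, Acadvl, was past it as lower, where 20.3% were. Acadvl, the dehydrogenase for very long chains, was counted 22 times in WT and 105 times in KO, at 21.5 CPM (13.5 to 32.5) and 10.2 CPM (8.36 to 12.4), a log2 ratio of -1.07 (-1.75 to -0.34). It overlaps Dvl2 on the other strand, and whether the counting used strand is not stated, so its UMIs are uncertain. Etfb overlaps Gm45233 and Acadl overlaps Gm15793 on the same strand, and Hadha overlaps Garem2 on the other. How far these overlaps touched the counts was not tested. The median log2 ratio of the 9 genes was -0.06, against -0.05 over all genes. With barcodes of under 3% spermatid marker UMIs, again 0 were higher and 1 lower, where 15.6% and 21.2% of genes were. The summed level of the 10 genes was 2194 CPM (2104 to 2287) in WT and 2116 CPM (2088 to 2145) in KO.

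Both palmitoyltransferases had log2 ratios close to 0 in Leydig-like cells. Cpt1a, the entry step, had 82 and 806 UMIs, 80.1 and 78.4 CPM, with a log2 ratio of -0.03 (-0.36 to 0.32), and Cpt2 had 74 and 730 UMIs, 72.3 and 71.0 CPM, with -0.03 (-0.37 to 0.34). Of the dehydrogenases, Acadm, for medium chains, had 466 and 3752 UMIs, 455 and 365 CPM, with a log2 ratio of -0.32 (-0.46 to -0.18), and Acadl had 0.14 (-0.01 to 0.30). The interval of Acadm lay below 0 and inside the fold. Hadha had 308 and 2975 UMIs and a log2 ratio of -0.06 (-0.23 to 0.12), and its partner Hadhb had 129 and 1013 UMIs and -0.35 (-0.62 to -0.08). Etfa had 665 and 7250 UMIs, 650 and 705 CPM, and 0.12 (0.00 to 0.24), and Etfb, the other subunit, had 137 and 1097 UMIs and -0.33 (-0.58 to -0.06).

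Cpt1b, the muscle form, had few UMIs in every class. It was counted 16 times in WT and 9 times in KO, of which 8 and 5 were in late spermatocyte-like barcodes. Leydig-like cells held 0 in WT, with an interval that reaches 3.60 CPM, and 1 in KO. Chkb lies 496 bases from Cpt1b and had 90 and 173 UMIs, and a gene that joins the pair overlaps Cpt1b on the same strand, so the few UMIs of Cpt1b are uncertain.

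RNA of elongating spermatids, the most abundant cells in WT, was found in barcodes of other classes, and most of all in WT Sertoli-like barcodes. All 18 elongating spermatid markers had UMIs there, at a median of 56.0% (48.9 to 98.0 over the markers) of their level in the elongating spermatid-like class in WT, and at 15.0% (13.4 to 19.7) in KO. In the median Sertoli-like barcode the 18 markers took 18.7% (WT) and 0.156% (KO) of UMIs, whereas the 15 Sertoli markers took 0.520% and 3.56%. The Sertoli markers took 0.608% in the median WT Leydig-like barcode, where single markers ran from 0% to 82.1% of their Sertoli-like level. In the median WT spermatogonia-like barcode they took 0.0115%. As spermatid markers took more than Sertoli markers in the median WT Sertoli-like barcode, the Sertoli name of many WT barcodes is uncertain. In WT, 32 of the 50 Sertoli-like barcodes had at least 10% of UMIs from the spermatid markers. Only 15 of 50 WT Sertoli-like barcodes, but 368 of 475 in KO, had under 3% of UMIs from the 18 spermatid markers. In Leydig-like barcodes the median was 0.204% in WT and 0.105% in KO, with 84 of 93 and 1106 of 1169 under 3%. Doublet calls marked 0 of the 50 WT and 39 of the 475 KO Sertoli-like barcodes.

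Over every Sertoli-like barcode, 8 of 8 genes with enough UMIs were past the fold as higher in KO, where 59.7% of 8617 genes were, and 0 were lower, where 17.4% were. Their median log2 ratio was 1.29, against 0.85 over all genes. Among the 15 and 368 barcodes with under 3% spermatid marker UMIs, a selection added after the data had been seen, 3 of 8 were higher, where 26.0% of 7321 genes were, and 1 was lower, where 18.4% were. The median log2 ratio was then 0.26, against 0.10 over all genes, and the summed level was 626 CPM in WT and 866 CPM in KO, where it had been 286 CPM (241 to 338) and 737 CPM (713 to 762) over every barcode.

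The genes that were past the fold as higher in both selections were Acadm, Etfa and Cpt2. Acadm had 9 UMIs in WT and 491 in KO over every barcode, 18.7 and 104 CPM, a log2 ratio of 2.47 (1.54 to 3.61), and 6 and 434 UMIs in the barcodes low in spermatid RNA, 41.3 and 121 CPM, 1.55 (0.41 to 3.0). Etfa had 27 and 816 UMIs, 56.0 and 172 CPM, 1.62 (1.07 to 2.23), and then 17 and 736 UMIs, 117 and 205 CPM, 0.81 (0.12 to 1.6). Cpt2 rested on 2 UMIs in WT against 135 in KO, and then on 1 against 127, with an interval of -0.14 to 7.68 that includes 0. These values rest on 15 WT barcodes with 145366 UMIs. With under 1% spermatid marker UMIs, 12 WT and 338 KO barcodes were left, Acadm had 2 and 415 UMIs and 2.91 (1.05 to 5.96), and Etfa had 16 and 672 UMIs and 0.60 (-0.11 to 1.42), an interval that includes 0.

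Acadl, Hadha, Hadhb and Cpt1a were past the fold over every barcode and not in the selection under 3%. Acadl went from 33 and 649 UMIs, 68.5 and 137 CPM, a log2 ratio of 1.00 (0.50 to 1.55), to 22 and 584 UMIs, 151 and 162 CPM, 0.10 (-0.51 to 0.79). Hadha went from 1.00 (0.51 to 1.52) to 0.18 (-0.44 to 0.86), Hadhb from 1.58 (0.72 to 2.60) to 0.20 (-0.70 to 1.28), and Cpt1a from 0.96 (0.24 to 1.79) to 0.32 (-0.63 to 1.46). Etfb, at 4 and 59 UMIs over every barcode, went from 0.59 (-0.85 to 2.51) to -0.93 (-2.37 to 1.00), past the fold as higher and then as lower, and with both intervals around 0 its direction was not detectable at this depth. Acadvl, with 0 WT and 3 KO UMIs, was in both libraries at or under the limit of 3 counts.

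**Figure D3:**
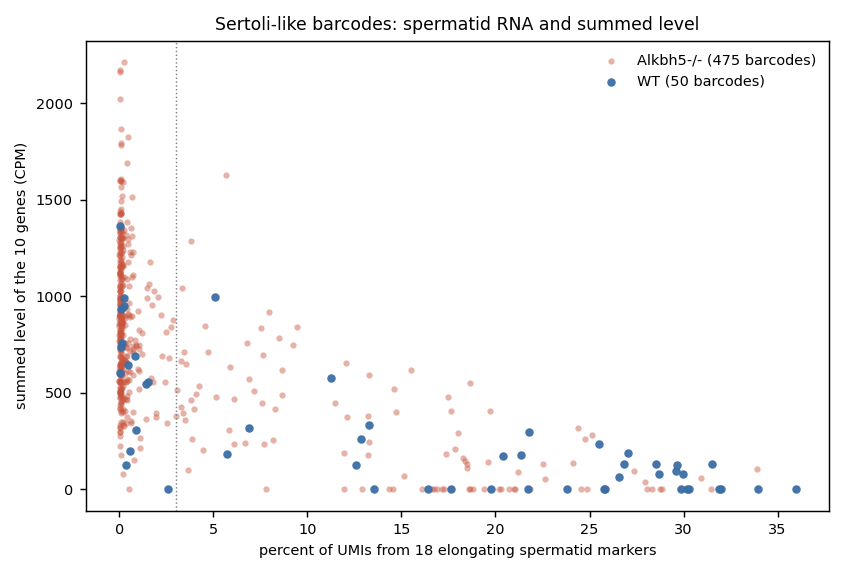
Each point is a Sertoli-like barcode, 50 from WT in blue and 475 from KO in red, by the percent of its UMIs from 18 elongating spermatid markers (horizontal axis) and the summed CPM of the 10 genes (vertical axis), with a dotted line at 3%. Barcodes rich in spermatid RNA had low summed levels in both libraries, and 35 of the 50 WT barcodes lie to the right of the line.

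**Figure D4:**
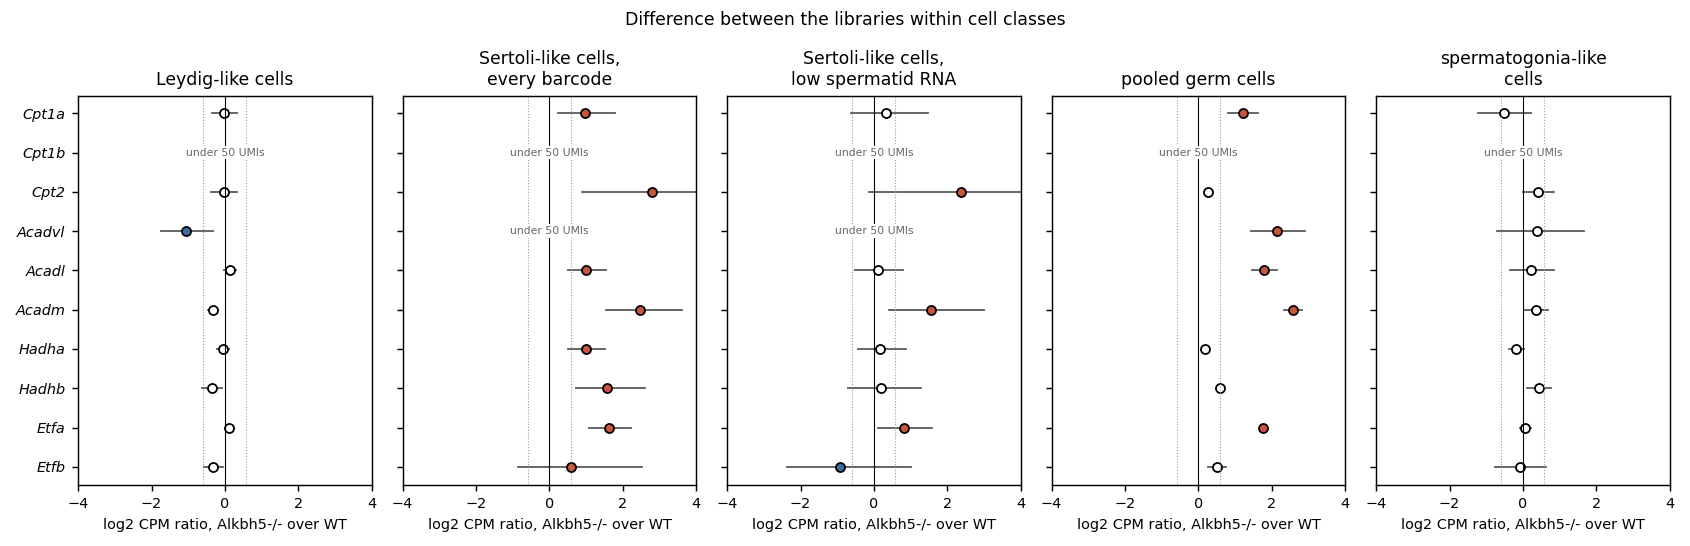
Log2 ratio of CPM, KO over WT, of each gene in Leydig-like, Sertoli-like, pooled germ and spermatogonia-like cells, with exact 95% intervals (bars, clipped at 4), filled points for genes past a CPM ratio of 1.5 (dotted lines) and open points for the others. The 8 filled points of all Sertoli-like barcodes fall to 4 when barcodes with 3% or more spermatid marker UMIs are left out.

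In germ cells the genes followed different courses. Hadha, the subunit with the hydratase and dehydrogenase activities, went from 135 CPM in WT and 119 CPM in KO in spermatogonia-like cells to 107 (72.0 to 152) and 164 (139 to 194) in early spermatocyte-like cells, a step that exceeded the intervals in KO and not in WT. It was at 231 (223 to 240) and 226 (217 to 235) in late spermatocyte-like cells, 196 and 192 in the germ cells of unnamed stage, 74.7 and 78.3 in round spermatid-like and 13.6 and 13.1 in elongating spermatid-like cells. Each step from late spermatocyte-like to elongating spermatid-like cells was larger than the counting intervals. Among late spermatocyte-like clusters, that led by Pabpc6 had 260 and 273 CPM and that led by Piwil1 187 and 175 CPM. Among round spermatid-like clusters, that led by Gm30302 had 21.3 and 31.0 CPM, against 108 and 109 CPM in that led by Tssk5 and 55.4 and 64.3 CPM in that led by Cd46. Cpt2 was at 76.7 and 74.3 CPM in late spermatocyte-like and 1.80 and 1.62 CPM in elongating spermatid-like cells, and its WT levels in early and late spermatocyte-like and Leydig-like cells did not differ beyond their intervals. Hadhb was at 89.2 and 99.8 CPM in late spermatocyte-like and 8.71 and 12.8 CPM in round spermatid-like cells.

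Etfa took another course through meiosis. It was at 284 CPM (259 to 311) in WT and 298 CPM (286 to 310) in KO spermatogonia-like cells and at 448 (373 to 534) and 614 (564 to 669) in early spermatocyte-like cells, and then at 6.48 (5.18 to 8.0) and 20.5 (17.9 to 23.3) in late spermatocyte-like cells. In round spermatid-like cells it was at 20.8 (19.2 to 22.6) and 23.6 (21.7 to 25.6) CPM, above the germ cells of unnamed stage at 7.05 and 9.24, and above late spermatocyte-like cells beyond the intervals in WT and not in KO. In the cluster led by Gm30302 it was at 0.949 and 5.94 CPM. Its partner Etfb was at 13.6 and 12.7 CPM in spermatogonia-like cells, at 0.377 and 0.551 CPM in late spermatocyte-like cells, and at 7.89 and 8.41 CPM in the germ cells of unnamed stage. Acadm was at 59.0 and 75.5 CPM in spermatogonia-like cells and at 0.427 and 1.58 CPM in round spermatid-like cells. In early spermatocyte-like cells it had 0 and 16 UMIs, where the interval of the WT count of 0 reaches 13.1 CPM. The KO level there was 18.3 CPM (10.4 to 29.7), so the intervals overlap. Late spermatocyte-like cells thus held Hadha, Hadhb and Cpt2 RNA with little Acadl, Acadm, Etfa and Etfb RNA in either library.

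Over pooled germ cells, 5 of 9 genes with enough UMIs were past the fold as higher in KO, where 35.4% of 19640 genes were, and 0 were lower, where 5.94% were. These were Acadm (157 and 788 UMIs, log2 ratio 2.57), Acadvl (21 and 78, 2.14), Acadl (103 and 301, 1.79), Etfa (1364 and 3923, 1.77) and Cpt1a (79 and 154, 1.21). Spermatogonia-like cells are the germ cells with the highest Acadm, Acadl and Acadvl, and they took 3.30% of WT and 15.1% of KO barcodes. With equal weight for each of the 11 germ cell clusters, 3 of the 9 were higher, where 14.8% of genes were, at 0.80 for Acadm, 0.82 for Acadvl and 0.69 for Acadl, with Etfa at 0.36 and Cpt1a at 0.02.

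Within spermatogonia-like cells, 0 of 9 genes were past the fold in either direction, where 10.7% of genes were higher and 15.0% lower. Their log2 ratios ran from -0.53 for Cpt1a (22 and 75 UMIs) to 0.43 for Hadhb (98 and 649 UMIs). Acadm had 100 and 629 UMIs and 0.36 (0.05 to 0.67), and Etfa 481 and 2480 UMIs and 0.07 (-0.07 to 0.21). Among barcodes with under 3% spermatid marker UMIs, Cpt1a was past the fold as lower, at 15.0 and 9.48 CPM and -0.66 (-1.39 to 0.11), where 15.9% of genes were lower and 9.88% higher. In early spermatocyte-like cells, with 35 WT and 121 KO barcodes, 1 of 4 genes was higher, where 10% of genes were, and 0 were lower, where 10.7% were. Hadha had 30 and 144 UMIs, 107 and 164 CPM, 0.62 (0.05 to 1.24). In the germ cells of unnamed stage, 0 of 5 were past the fold, where 7.89% of genes were higher and 6.96% lower.

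In late spermatocyte-like cells, 2 of 6 genes were past the fold as higher in KO, where 10.2% of genes were, and 0 were lower, where 6.63% were. Etfa had 86 and 223 UMIs, 6.48 and 20.5 CPM, a log2 ratio of 1.66 (1.30 to 2.04), and Acadm 29 and 84 UMIs, 2.18 and 7.71 CPM, 1.82 (1.20 to 2.48). Most of these UMIs were in the cluster led by Piwil1, which held 70 and 193 Etfa and 25 and 67 Acadm UMIs. Hadha, at 3071 and 2459 UMIs, and Cpt2, at 1018 and 809, had -0.03 (-0.11 to 0.04) and -0.05 (-0.18 to 0.09) in the same cells. Relative to Leydig-like cells, the median level of the 13 Leydig markers in late spermatocyte-like cells was 0.0129% in WT, with Lhcgr at 0, and 0.291% in KO, where all 13 had UMIs and ran from 0.170% to 0.516%. Etfa was at 0.997% and 2.90% of its own Leydig-like level there, and Acadm at 0.480% and 2.11%. The part of RNA from Leydig-like cells, or from the more numerous spermatogonia-like cells, in these ratios was not tested.

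In round spermatid-like cells 2 of 7 genes were higher, where 15.5% of genes were, and 0 lower, where 6.36% were. Acadm had 12 and 38 UMIs, 0.427 and 1.58 CPM, 1.89 (0.92 to 2.96), and Acadl 55 and 79 UMIs, 1.95 and 3.29 CPM, 0.75 (0.24 to 1.28). There the median Leydig marker stood at 0.0274% in WT and 0.243% in KO, relative to Leydig-like cells, Acadm at 0.0937% and 0.434%, and Acadl at 0.551% and 0.841%. In elongating spermatid-like cells 2 of 4 were higher, where 23.1% of genes were, and 0 lower, where 7.0% were. Etfa had 18 and 38 UMIs, 0.704 and 2.81 CPM, 1.99 (1.15 to 2.89), and Hadhb 80 and 67 UMIs, 3.13 and 4.95 CPM, 0.66 (0.17 to 1.15). The Leydig markers were there at a median of 0.0353% and 0.207%, and Etfa at 0.108% and 0.398%. The part of Leydig RNA in these ratios was not tested.

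Across the 16 points formed by 8 cell classes and 2 libraries, the levels on the log2(CPM + 1) scale were most alike for a few pairs of genes. Acadl had a Pearson r of 0.91 with Acadm, 0.90 with Etfb and 0.88 with Cpt1a, and Acadm and Etfb had 0.88. Hadha and Hadhb had 0.91, and Cpt2 had 0.86 with Hadha and 0.85 with Hadhb, whereas Etfa and Etfb, subunits of the same flavoprotein, had 0.64. Points of 1 library share its depth and its free RNA, and r is a description. Among 16401 genes, those most alike were Prdx3 (0.984), Txndc5 (0.976) and Echs1 (0.973) for Acadl, and Pcyox1 (0.977), Cr1l (0.973) and Cyp20a1 (0.972) for Acadm. For Etfa they were Por (0.987), Hikeshi (0.970) and Vbp1 (0.967), for Hadhb Ganc (0.986), Trappc1 (0.980) and Ndufc2 (0.977), and for Hadha they included Kxd1 (0.976) and Ift20 (0.970). For Cpt1a they were Pex2 (0.979), Creg1 (0.970) and Mcee (0.966), for Cpt2 Surf4 (0.955), Immt (0.946) and Cd164 (0.945), for Acadvl Aldoc (0.980), Mvd (0.963) and Lynx1 (0.961), and for Etfb Elovl5 (0.957), Cryzl2 (0.942) and Slc1a5 (0.936).

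Among further genes of the pathway in Leydig-like cells, the counts past the fold differed by list, where 15.3% of all genes were higher and 20.3% lower. Of 21 further genes of mitochondrial beta-oxidation, 19 had enough UMIs, of which 1 was higher in KO and 0 lower, with a median log2 ratio of -0.06 against -0.05 over all genes. Of the carnitine shuttle list 0 of 5 were past the fold, of the peroxisomal list 0 were higher and 2 lower of 11, and of the 20 genes of the citric acid cycle, which takes up acetyl-CoA, 0 were higher and 2 lower. Fatty acid uptake and binding had 1 higher and 2 lower of 9, fatty acid activation 2 and 2 of 11, lipid droplets and fatty acid synthesis 2 and 2 of 14, ketone bodies 1 and 0 of 7, and regulators with the malonyl-CoA genes 3 and 0 of 8. Acaca, which makes the malonyl-CoA that inhibits CPT1, had 5 and 106 UMIs, 4.88 and 10.3 CPM, 1.08 (-0.19 to 2.73). Dgat2, which makes triglycerides, had 104 and 439 UMIs, 102 and 42.7 CPM, -1.25 (-1.56 to -0.93). Prkaa2, a catalytic subunit of the kinase AMPK, had 3 and 63 UMIs and 1.06 (-0.55 to 3.38), Pdha2, the testis form of a pyruvate dehydrogenase subunit, 39 and 130 UMIs and -1.59 (-2.12 to -1.04), and Acsbg2, an acyl-CoA synthetase, 22 and 81 UMIs and -1.45 (-2.14 to -0.70). In the barcodes low in spermatid RNA Acsbg2 had 14 and 32 UMIs, too few for a call, while Pdha2 (-1.60) and Dgat2 (-1.47) were again past the fold. So were Acaca at 1.32 (-0.08 to 3.22) and Prkaa2 at 0.97 (-0.64 to 3.29). These rested on 4 and 3 WT UMIs, and both intervals include 0. The part of germ cell RNA in the Pdha2 ratio was not tested.

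In Sertoli-like cells, 11 of 14 further mitochondrial beta-oxidation genes were higher over every barcode, where 59.7% of all genes were. In the barcodes low in spermatid RNA 3 of 14 were higher and 2 lower, where 26.0% and 18.4% of all genes were. Of 8 peroxisomal genes, 8 were higher and then 5, with a median of 1.53 and then 1.13 against 0.85 and 0.10 over all genes. Of 3 carnitine shuttle genes, 0 were higher and 1 lower, and then 0 and 2, with medians of -0.02 and then -1.04. Of citric acid cycle genes, 16 of 19 were higher and 0 lower, and then 2 and 1 of 18. Uptake and binding had 5 higher and 2 lower of 8, and then 4 and 2 of 8. Activation had 4 and 3 of 7, then 1 and 1 of 5. Lipid droplets and synthesis had 8 and 3 of 11, then 3 and 2 of 10. Ketone bodies had 2 and 2 of 5, then 2 and 0 of 2, and regulators 2 and 0 of 2 in both. Fabp3, a fatty acid binding protein, had 5 and 321 UMIs in WT and KO, a log2 ratio of 2.71 (1.47 to 4.34), and then 1 and 267, 3.43 (0.94 to 8.74). Abcd2, a peroxisomal transporter, had 1 and 174 UMIs, 4.15 (1.65 to 9.46), and then 1 and 153, 2.63 (0.13 to 7.94). Acaa1a, a peroxisomal thiolase, had 2 and 89 UMIs, 2.18 (0.28 to 5.25), and then 1 and 77, 1.64 (-0.88 to 6.96), an interval that includes 0. Genes lower over every barcode were Oxct2b and Oxct2a, the testis forms of a ketone body transferase, at -2.24 and -1.73, Acsbg2 at -1.97, Acsl1 at -1.96 and Lipe, the hormone-sensitive lipase, at -1.85. Of these only Acsl1 had 50 UMIs in the barcodes low in spermatid RNA, at 5 and 75 UMIs and -0.72 (-2.01 to 0.94).

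In pooled germ cells, 17 of the 21 further mitochondrial beta-oxidation genes were higher in KO and 0 lower, where 35.4% and 5.94% of all genes were, with a median log2 ratio of 1.33 against 0.28 over all genes. Within spermatogonia-like cells 6 of 16 were higher and 0 lower, where 10.7% and 15.0% of all genes were, with a median of 0.18 against 0.03. Of the other lists in pooled germ cells, uptake and binding had 8 higher and 0 lower of 12, and the peroxisomal list 7 and 1 of 13. The citric acid cycle had 9 and 0 of 20, regulators 5 and 1 of 14, and activation 3 and 1 of 9. The carnitine shuttle had 1 and 0 of 5 and ketone bodies 2 and 2 of 7. Lipid droplets and fatty acid synthesis had 2 and 0 of 13, with a median of -0.04. The genes with the largest pooled ratios were Fabp3 (93 and 1009 UMIs, 3.69), Scd2, a fatty acid desaturase (19 and 195, 3.61), Acsbg1, an acyl-CoA synthetase (21 and 193, 3.45), and Pdha1, the somatic pyruvate dehydrogenase subunit (26 and 213, 3.28). Fabp3 was also among the 10 genes that led the Leydig-like cluster. Ppargc1a, a coactivator of mitochondrial genes, was at 113 and 42 UMIs, -1.18 (-1.73 to -0.66).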

How the data were processed

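The authors made 1 GEXSCOPE library per genotype, sequenced it as paired 150-bp reads, aligned the reads with STAR 2.5.3a and counted them with featureCounts 1.6.2. The deposited count of a gene in a barcode is a number of UMIs, without normalization. The methods name GRCh38 with Ensembl 92, a human build, while the symbols are those of the mouse. Positions here are from GENCODE vM21 on GRCm38. A gene missing from a table was taken as 0.

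Cells over 500 genes were integrated and clustered in Seurat 5.3.0 (R 4.3.3) after the methods, with 2000 variable features, 20 anchor dimensions, 30 principal components and resolution 0.3, which gave 15 clusters. A name needed 3 detected markers, and a germ cell stage a mean log2 fold of at least 1 or 2 of its markers among the 10 leading genes, a condition set after the data had been seen. UMIs were summed per class and library (Python 3.11.15, numpy 2.4.6, scipy 1.17.1, pandas 2.3.3), with exact Poisson and Clopper-Pearson intervals and, for log2 ratios of CPM, the exact conditional interval of 2 Poisson sums, at 95%. Sums of 0 were set to a ceiling of 3 counts. No test was made, as cells of 1 library are not replicates. Doublets were called with Scrublet (scanpy 1.11.5) and kept, 243 in WT and 348 in KO. Motifs were searched as letters on both strands.

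All 10 genes are named, and of the pathway lists at most 5 genes in each direction per class with at least 50 UMIs and a CPM ratio of at least 2. For each of the 10, the 3 genes with the highest r are named, among genes with at least 200 UMIs. The 10 genes, the lists and the markers were chosen with earlier results of these data known. The 3 alike genes of Cpt1b, which rests on 25 UMIs, were left out. Some genes that these rules name are not reported here.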

Additional observations from a re-analysis of the deposited data

How the results depend on the processing

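No paired analysis was possible because there is 1 library per genotype. Alternatives were resolution 0.8, no integration, doublets removed, cells over 1000 genes, totals that left out mitochondrially encoded and ribosomal protein genes, or genes over 5 times higher in germ cells, thinning, other limits, equal cluster weights, and, added after the data had been seen, barcodes low in spermatid marker UMIs. In Leydig-like cells the number lower in KO, 1, became 0 with at least 200 UMIs, 0 with the size criterion of FindMarkers and 2 with thinned cells. In Sertoli-like cells the number higher, 8, became 5 with a CPM ratio of at least 2 and 5 with the FindMarkers criterion. At least 200 UMIs left out Cpt2 and Etfb. The number became 7 with totals that left out genes over 5 times higher in germ cells. That setting removed 3.87% of the WT Sertoli-like UMIs, whereas the 18 spermatid markers were at 1.656e+05 CPM there, so most of their RNA stayed in. With barcodes under 3% or under 1% of spermatid marker UMIs the number higher became 3, where the number lower became 1. In pooled germ cells the number higher, 5, became 1 with the FindMarkers criterion and 3 with equal weights, and at least 200 UMIs left out Acadvl. The number lower there became 1 with at least 20 UMIs. Among ratios past the fold, those that changed sign were all in Sertoli-like cells: Etfb at -0.13 thinned, -0.93 under 3% and -1.14 under 1%, and under 1% also Acadl at -0.093 and Hadhb at -0.076. The selections under 3% and under 1% leave fewer WT barcodes and less spermatid RNA in the totals. The cause of the sign changes was not tested. Ratios inside the fold also crossed 0 over the alternatives, in Leydig-like cells Acadl (-0.014 to 0.16), Etfa (-0.040 to 0.14), Cpt1a (-0.15 to 0.28), Cpt2 (-0.36 to 0.0068) and Hadha (-0.16 to 0.032), and in pooled germ cells Cpt2 (-0.017 to 0.40). The other ratios in these 3 classes kept their direction. With 93 WT Leydig-like and 50 WT Sertoli-like barcodes, the WT counts limit both comparisons, and each interval leaves out the spread between animals.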
